A study of Mus musculus with 29 samples.

Results

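Kinesins and dyneins are the motor proteins that walk along microtubules. Their genes were followed here across sorted bipolar cells and photoreceptors of the adult mouse retina. Members were taken by gene symbol alone, as every row of the RNA-seq table named as a kinesin (Kif and a number or c), a kinesin light chain (Klc and a number), a cytoplasmic dynein subunit (Dync) or an axonemal dynein heavy chain (Dnah and a number). This rule found 64 of the 24062 genes in the table. Of these, 52 passed the filter on low counts and were tested among 14024 genes in all, and 44 had reads in all 15 RNA-seq libraries.

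Most kinesins carry cargo away from the cell body, towards the growing ends of microtubules, and cytoplasmic dynein-1 carries cargo back. A neuron depends on both to supply its axon and synapse. Photoreceptors add a further route, since their light-sensitive outer segment is a modified cilium that is supplied along the axoneme by kinesin-2 and dynein-2. Other members of the same gene families drive the mitotic spindle or the beating of motile cilia, neither of which a mature retinal neuron is known for.

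RNA-seq was available for 5 populations of 3 libraries each. All bipolar cells (pan-BC) were sorted from Otx2-GFP+/- mice at postnatal day 44 to 47. ON bipolar cells (ON-BC) and OFF bipolar cells (OFF-BC) came from Otx2-GFP+/-; Grm6-YFP+/+ mice at postnatal day 42 to 48. Rods came from Nrl-eGFP mice and blue cones from Nrl-eGFP;NrlKO mice, both at postnatal day 56. Otx2-GFP is a knock-in at the Otx2 locus, so the mice carry 1 allele with the cassette, and it labels bipolar cells brightly and photoreceptors dimly. Grm6-YFP uses the promoter of the ON bipolar glutamate receptor gene. The study holds that the BC5D type is probably missing from both subsets. OFF-BC were sorted 2 times and all the other RNA-seq populations 1 time, so the number of sorts and the bipolar class cannot be told apart. The blue cones are photoreceptors of mice that lack Nrl, the factor that directs rod fate, and stand in for the rare native short-wavelength cones. The photoreceptor libraries came from another study and an older age, so cell class, study and age cannot be told apart in any comparison of pan-BC with photoreceptors. Open chromatin was measured by ATAC-seq in 2 libraries for each of these populations and for green cones of Opn1mw-GFP mice. The ATAC-seq ages were postnatal day 44 and 43 for pan-BC and 42 and 46 for both ON-BC and OFF-BC. They were day 56 for rods, blue cones and green cones. The pan-BC libraries of that assay were labelled Otx2-GFP+/-; Grm6-YFP+/+. The labels do not tie libraries to animals, so p-values measure the spread between these libraries. In bulk samples, fewer cells of a type and less RNA per cell cannot be told apart.

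Libraries held 12329548 to 26266746 counted reads each in RNA-seq, and from 4176776 to 12345845 in ATAC-seq. Bipolar markers (9 genes) summed to between 106910 and 157710 normalized counts in the bipolar libraries, to between 1477 and 2059 across rods and to between 26329 and 30651 across blue cones. Rod markers (6 genes) summed to between 1750600 and 2409800 across rods and to between 32958 and 41462 across pan-BC, and single rod markers stood in pan-BC at 0.397% to 4.83% of their rod level. Cone markers (6 genes) summed to between 1629300 and 1851900 across blue cones and to between 115470 and 143930 across pan-BC, where Gnb3, a gene that bipolar cells also express, stood at 35.4% of its blue cone level and the other 5 markers at 0.558% to 5.6%. Horizontal, ganglion, endothelial, microglial and pigment epithelium markers each summed to at most 625 normalized counts in any library. OFF-BC libraries differed among themselves, with rod marker sums from 3539 to 17852 and cone marker sums from 29709 to 107970. The part of these cells in the motor gene results was not tested, and their values are given below where they move with one.

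Levels are normalized counts, which are reads divided by 1 size factor per library. Values compared between genes are divided by the length of the gene's merged exons, as normalized counts per kb. Differences are log2 fold changes of normalized count + 1 with their standard errors (SE), tested with limma against a minimum log2 fold change of 1, and a gene is called higher or lower at an adjusted p below 0.05. In pan-BC against rods, 9 of the 52 motor genes were higher and 15 lower, where 27.8% and 15.8% of all 14024 tested genes were. In pan-BC against blue cones, 11 were higher and 10 lower, against 22.7% and 13.7% of all genes. In ON-BC against OFF-BC, 2 were higher and 2 lower, against 2.95% and 3.6%. In rods against blue cones, 7 were higher and 2 lower, against 4.63% and 11.3%. The 2 comparisons with pan-BC share the 3 pan-BC libraries, so their values are set side by side and are not independent. The median log2 fold change of the motor genes was -0.21 against rods (0.21 for all tested genes), 0.23 against blue cones (0.16), 0.11 between ON-BC and OFF-BC (-0.02) and 0.14 between rods and blue cones (-0.00). The shares of motor genes called higher and lower were 17.3% and 28.8% against rods and 21.2% and 19.2% against blue cones, and both directions occurred within single families.

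**Figure D1:**
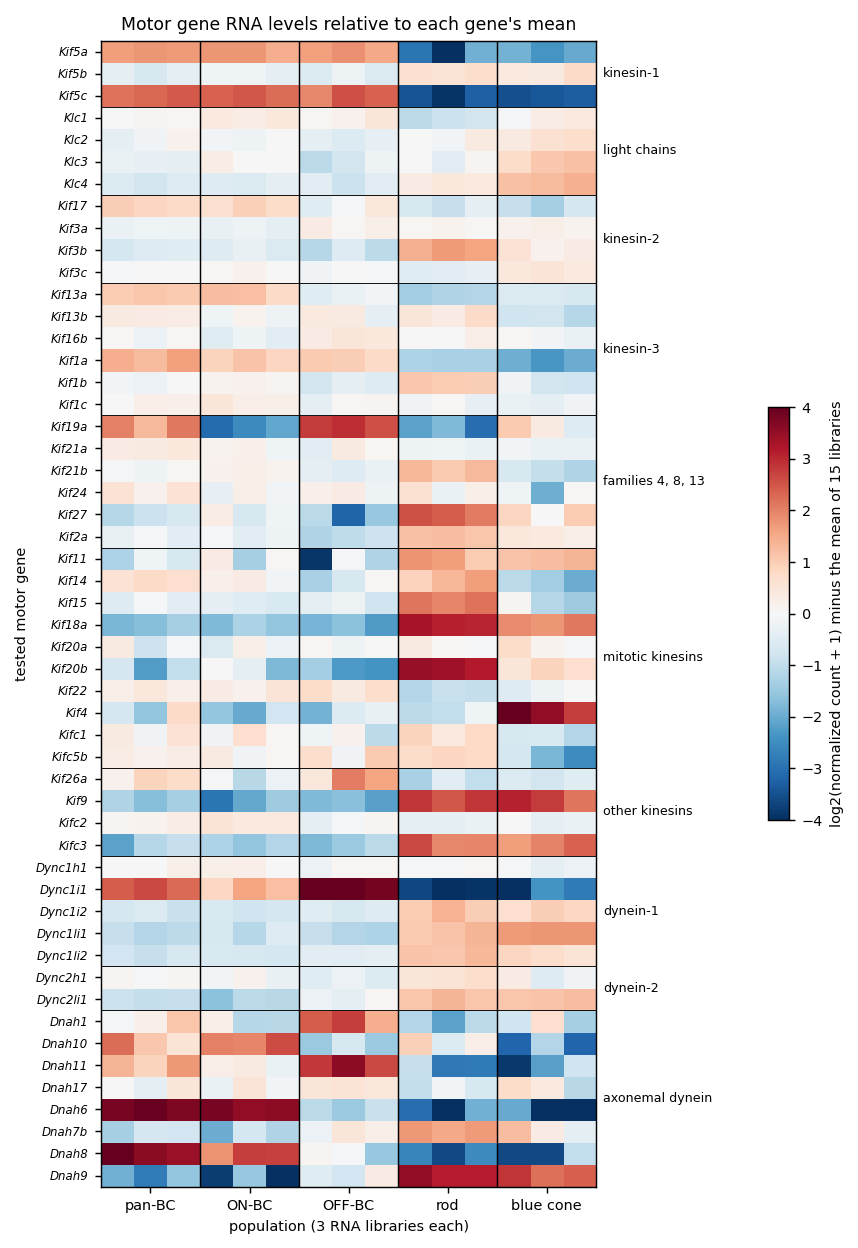
Heat map of the 52 tested motor genes (rows, grouped by role) in the 15 RNA-seq libraries (columns, grouped by population), coloured by log2(normalized count + 1) minus the mean of the gene over all libraries. The 3 libraries of a population resemble each other. Kif5a, Kif5c and Dync1i1 stand out as high in bipolar libraries, and Dnah6 and Dnah8 in those of pan-BC and ON-BC. Kif18a, Kif20b, Kif9 and Dnah9 stand out in photoreceptors.

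The kinesin-1 heavy chains are the best-known axonal cargo motors, and 2 of the 3 were far higher in bipolar cells than in photoreceptors. Kif5c (chr2:49619286-49774778, GRCm38) was listed at 1605, 1734 and 1954 normalized counts across pan-BC, 31.1, 22.5 and 35.7 across rods and 30.1, 32.6 and 34.8 across blue cones. Kif5a stood at 1199, 1273 and 1215 across pan-BC, 48.5, 22.5 and 98.3 across rods and 100, 72.8 and 93.3 across blue cones. For both genes each bipolar library lay more than 10 times above each photoreceptor library. The log2 fold change of Kif5c was 5.86 (SE 0.18, limma adjusted p = 2.6e-13) against rods and 5.72 (SE 0.18, adjusted p = 1.5e-12) against blue cones. That of Kif5a was 4.66 (SE 0.33, adjusted p = 2.1e-08) and 3.79 (SE 0.33, adjusted p = 1.0e-06). ON-BC and OFF-BC libraries overlapped for both genes, with log2 fold changes of 0.07 (SE 0.18) for Kif5c and 0.01 (SE 0.33) for Kif5a.

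Kif5b, the heavy chain found in most tissues, went the other way by a smaller step. Its normalized counts were 1368, 1162 and 1390 across pan-BC, 2826, 2634 and 2930 across rods and 2378, 2333 and 3029 across blue cones. The groups did not overlap, but the log2 fold changes of -1.10 (SE 0.13, limma adjusted p = 0.42) and -0.98 (SE 0.13, adjusted p = 1.0) did not pass the minimum fold. Per kb of exon, the 3 heavy chains together came to 649 ± 34.2 (SD, n = 3) across pan-BC, 476 ± 31.1 across rods and 445 ± 65.6 across blue cones. Kif5b made up 97.5% ± 1.18 of that sum in rods and 96.1% ± 0.516 across blue cones. In pan-BC the sum was split into 27.1% ± 1.9 Kif5a, 33.4% ± 2.59 Kif5b and 39.5% ± 2.26 Kif5c. The summed level thus differed far less than its make-up.

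**Figure D2:**
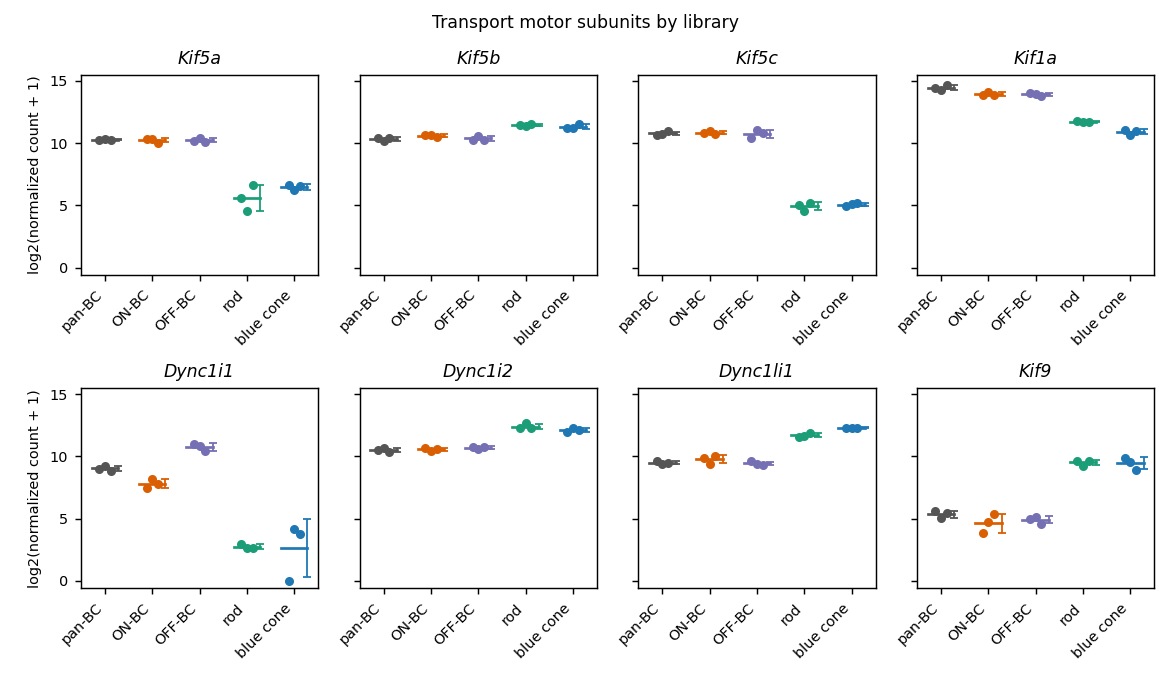
Normalized counts (log2 axis) of Kif5a, Kif5b, Kif5c, Kif1a, Dync1i1, Dync1i2, Dync1li1 and Kif9 in pan-BC, ON-BC, OFF-BC, rods and Nrl-KO blue cones, with 1 point per library, a line at the mean and a bar of 1 SD (n = 3). Kif5a, Kif5c, Kif1a and Dync1i1 are higher in every bipolar library than in any photoreceptor library, and Kif5b, Dync1i2, Dync1li1 and Kif9 are lower.

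The kinesin light chains couple kinesin-1 to cargo, and none of the 4 was called against rods. Klc1 had 2745, 2930 and 2858 normalized counts across pan-BC and 1288, 1499 and 1628 across rods, a log2 fold change of 0.96 (SE 0.13, limma adjusted p = 1.0). Klc4 was called lower in pan-BC than in blue cones, where it reached 2979, 3151 and 3541 against 899.8, 784 and 926 across pan-BC (log2 fold change -1.89, SE 0.12, adjusted p = 4.3e-06). Klc3 differed from blue cones by -1.31 (SE 0.19, adjusted p = 0.15), but 28.9% of its exon bases also lie in Ercc2 exons, and the unstranded reads of overlapping genes cannot be told apart. Klc2 ranged from 332 to 791 over all libraries. The light chain sum per kb was 1760 ± 42.0 across pan-BC, 1755 ± 129 across rods and 3451 ± 440 across blue cones.

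Kinesin-2 pulls intraflagellar transport trains into the cilium and was measured through Kif3a, Kif3b, Kif3c and Kif17. Kif3a, the common subunit, was not called anywhere, at 1917 to 3082 normalized counts. Its partner Kif3b stood at 355, 402 and 412 across pan-BC, at 1547, 1851 and 1726 across rods and at 854, 645 and 721 across blue cones. Kif3b was called lower in pan-BC than in rods (log2 fold change -2.13, SE 0.16, limma adjusted p = 4.9e-06) and not in the comparison with blue cones (-0.92, SE 0.16, adjusted p = 1.0). Kif17, a homodimeric kinesin-2 also found in dendrites, had 245, 229 and 214 across pan-BC, 79.6, 65.6 and 96.2 across rods and 64.7, 48.6 and 77.0 across blue cones. It was called higher in pan-BC than in blue cones (1.86, SE 0.25, adjusted p = 0.0051) and missed the threshold against rods (1.51, SE 0.25, adjusted p = 0.060). Kif3c was not called in any of the 4 comparisons, and 38.1% of its exon bases overlap 1110002L01Rik.

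Among the kinesin-3 genes, Kif1a carries synaptic vesicle precursors. It was the most abundant member of its group, at 2684 normalized counts per kb in pan-BC, and had 22377, 19413 and 25210 normalized counts across pan-BC, 3425, 3288 and 3306 across rods and 2089, 1618 and 2040 across blue cones. The log2 fold change was 2.73 (SE 0.13, limma adjusted p = 2.5e-09) against rods and 3.54 (SE 0.13, adjusted p = 5.9e-11) against blue cones. Kif1b, a close relative that moves mitochondria and vesicle precursors, was highest in rods, at 17331, 16579 and 16300. It stood at 7583, 6966 and 8296 across pan-BC and at 7384, 4927 and 4738 across blue cones. Rods exceeded blue cones by 1.59 (SE 0.15, adjusted p = 0.0046), while pan-BC against rods (-1.14, SE 0.15, adjusted p = 0.35) was not called. Of the summed level of Kif1a, Kif1b and Kif1c per kb, Kif1a made up 83.8% for pan-BC against 26.3% for rods and 37.7% for blue cones. Kif13a, named after its values were seen, was called higher in pan-BC against both rods (2.32, SE 0.13, adjusted p = 4.6e-08) and blue cones (1.65, SE 0.13, adjusted p = 2.0e-04).

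Of the 8 interphase kinesins of families 4, 8 and 13, 6 were tested. Kif21a, which restrains microtubule growth, was the most abundant per kb and was not called anywhere. Kif21b was highest in rods, at 3376, 2790 and 3316 normalized counts, against 866, 691 and 585 across blue cones (log2 fold change 2.16, SE 0.13, limma adjusted p = 1.3e-06). Against rods pan-BC was called lower for it (-1.30, SE 0.13, adjusted p = 0.040), a call that was lost in DESeq2 (adjusted p = 0.078) and without pan-BC replicate 1 or 2 or rod replicate 1 or 3. Kif27, a homologue of a Hedgehog pathway kinesin, had 52.4, 48.1 and 37.8 across rods and 3.19, 4.04 and 4.89 across pan-BC (-3.23, SE 0.52, adjusted p = 8.0e-04). Kif2a, named after its values were seen, was also lower in pan-BC than in rods (-1.44, SE 0.12, adjusted p = 0.0037), with 18.6% of its exon bases inside Dimt1 exons.

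Kinesins known from the mitotic spindle were also read in these postmitotic cells, and 3 of the 10 tested were lower in pan-BC than in rods. Kif18a, which damps chromosome movements in dividing cells, had 513, 446 and 426 normalized counts across rods, 194, 176 and 226 across blue cones and 9.93 to 20.6 in the 9 bipolar libraries. No bipolar library came within 8 times of a photoreceptor library, and the log2 fold change was -4.76 (SE 0.26, limma adjusted p = 7.9e-10) against rods and -3.55 (SE 0.26, adjusted p = 2.0e-07) against blue cones. Kif20b, a cytokinesis kinesin, had 320, 301 and 257 across rods, 39.1, 52.4 and 44.4 across blue cones and 17, 5.04 and 13.5 across pan-BC. Against rods it was -4.65 (SE 0.48, adjusted p = 2.4e-06), and rods exceeded blue cones by 2.67 (SE 0.48, adjusted p = 0.012). Kif15, a spindle motor, stood at 185, 162 and 189 across rods, above both pan-BC (-2.41, SE 0.35, adjusted p = 0.0015) and blue cones, which rods exceeded by 2.90 (SE 0.35, adjusted p = 3.3e-04).

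Kif4, a chromosome-arm kinesin, was highest in blue cones. It had 265, 139 and 81.4 normalized counts there, 4.85, 5.12 and 9.73 across rods and 1.96 to 19.6 in bipolar libraries, with log2 fold changes of -4.32 (SE 0.62, limma adjusted p = 3.6e-04) for rods against blue cones and -4.10 (SE 0.62, adjusted p = 3.0e-04) for pan-BC against blue cones. The pseudogene Kif4-ps was listed at 0 in all libraries. Kif14, a midbody kinesin, was lowest in blue cones, at 10.5, 8.35 and 5.18, against 44.6, 59.4 and 75.6 across rods (rods higher by 2.77, SE 0.38, adjusted p = 0.0012). Pan-BC exceeded blue cones for Kif14 by 2.15 (SE 0.38, adjusted p = 0.012), a call lost without blue cone replicate 3. Kifc5b was higher in rods than in blue cones (2.48, SE 0.42, adjusted p = 0.011), also lost without that replicate, and shares sequence with Kifc1, so reads may be split between them. Kif22, the most abundant of the group per kb, was not called in any comparison and stood at 697, 810 and 677 across pan-BC and 262, 316 and 303 across rods (1.31, SE 0.15, adjusted p = 0.064).

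Of the 17 other genes listed for mitosis, 12 were tested, and 7 of them fell in pan-BC against rods while none rose, where 15.8% and 27.8% of all tested genes did. Cyclin A2 (Ccna2) fell from 226 ± 7.94 normalized counts across rods to 28 ± 7.64 across pan-BC (log2 fold change -3.0, limma adjusted p = 2.1e-04). The checkpoint kinase gene Bub1b had 1774 ± 71.5 across rods, 7076 ± 505 across blue cones and 29.7 ± 12.6 across pan-BC. Against blue cones 1 was higher and 3 lower, where 22.7% and 13.7% of all tested genes were. Between ON-BC and OFF-BC none was called (2.95% and 3.6%), and in rods against blue cones 2 were higher and 1 lower (4.63% and 11.3%).

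Among the other kinesins, Kif9 and Kifc3 were higher in both photoreceptors than in pan-BC. Kif9, a kinesin linked to motile cilia and matrix turnover, had 798, 611 and 791 normalized counts across rods, 914, 762 and 482 across blue cones and 13.4 to 46.8 in the bipolar libraries. For pan-BC its log2 fold change was -4.15 (SE 0.33, limma adjusted p = 1.6e-07) against rods and -4.08 (SE 0.33, adjusted p = 3.5e-07) against blue cones, and rods and blue cones overlapped. Kif9 starts head to head with Klhl18, which shares its promoter region and showed the same order, at 1479 ± 76.2 across pan-BC, 17377 ± 1463 across rods and 9577 ± 416 across blue cones. Kifc3, a minus-end-directed kinesin, had 288, 176 and 178 across rods, 147, 182 and 239 across blue cones and 9.57, 20.2 and 23.2 across pan-BC (-3.57, SE 0.35, adjusted p = 3.3e-06, and -3.41, SE 0.35, adjusted p = 1.1e-05). Kifc2, the most abundant of this group, was not called, at 492 to 939 over all libraries.

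The 15 members that fell in pan-BC against rods stood there at 2.2% (Dnah9) to 40.5% (Kif21b) of their rod level. Between these were Kif18a at 3.5%, Kif20b at 4.04%, Kif9 at 5.54%, Kifc3 at 8.25% and Kif27 at 8.76%, with the other 8 at 16.8% (Dnah7b) or more. The rod markers stood at a median of 0.962% in the same libraries. Rod RNA in pan-BC libraries was not tested as a source of these remaining reads.

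Cytoplasmic dynein-1 is the main minus-end motor, a heavy chain dimer held together by intermediate and light intermediate chains. The heavy chain gene Dync1h1 was level across all 15 libraries, at 1984 to 3041 normalized counts, and not called in any comparison. Its subunits were not level. The intermediate chain gene Dync1i1 (chr6:5725600-6028039) had 514, 606 and 464 across pan-BC, 6.79, 5.12 and 5.4 across rods and 0, 17.5 and 12.6 across blue cones. The log2 fold change was 6.29 (SE 0.70, limma adjusted p = 2.7e-06) against rods and 6.38 (SE 0.70, adjusted p = 3.4e-06) against blue cones. The other intermediate chain, Dync1i2, went the other way, with 1500, 1647 and 1332 across pan-BC, 4990, 6379 and 4880 across rods and 3904, 4835 and 4374 across blue cones (-1.85, SE 0.12, adjusted p = 5.7e-06, and -1.55, SE 0.12, adjusted p = 6.6e-04). Per kb, Dync1i1 was 26.0% ± 0.728 of the intermediate chains in pan-BC, 13.2% ± 3.75 across ON-BC, 50.6% ± 5.62 across OFF-BC, 0.108% ± 0.0277 across rods and 0.214% ± 0.189 across blue cones.

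Both light intermediate chains, which attach adaptors and cargo, were lower in pan-BC than in either photoreceptor. Dync1li1 had 775, 657 and 724 normalized counts across pan-BC, 3061, 3268 and 3769 across rods and 4846, 5092 and 5013 across blue cones (log2 fold changes -2.22, SE 0.14, limma adjusted p = 4.9e-07, and -2.79, SE 0.14, adjusted p = 8.1e-09). Dync1li2 differed by -1.95 (SE 0.10, adjusted p = 2.2e-07) and -1.48 (SE 0.10, adjusted p = 5.1e-04). Dynein-2 returns intraflagellar transport trains from the ciliary tip. Its heavy chain gene Dync2h1 was not called (-0.54, SE 0.17, and 0.16, SE 0.17, both adjusted p = 1.0), whereas its light intermediate chain gene Dync2li1 had 214, 202 and 206 across pan-BC against 834, 990 and 848 across rods and 848, 854 and 919 across blue cones (-2.10, SE 0.15, adjusted p = 4.6e-06, and -2.07, SE 0.15, adjusted p = 8.9e-06).

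**Figure D3:**
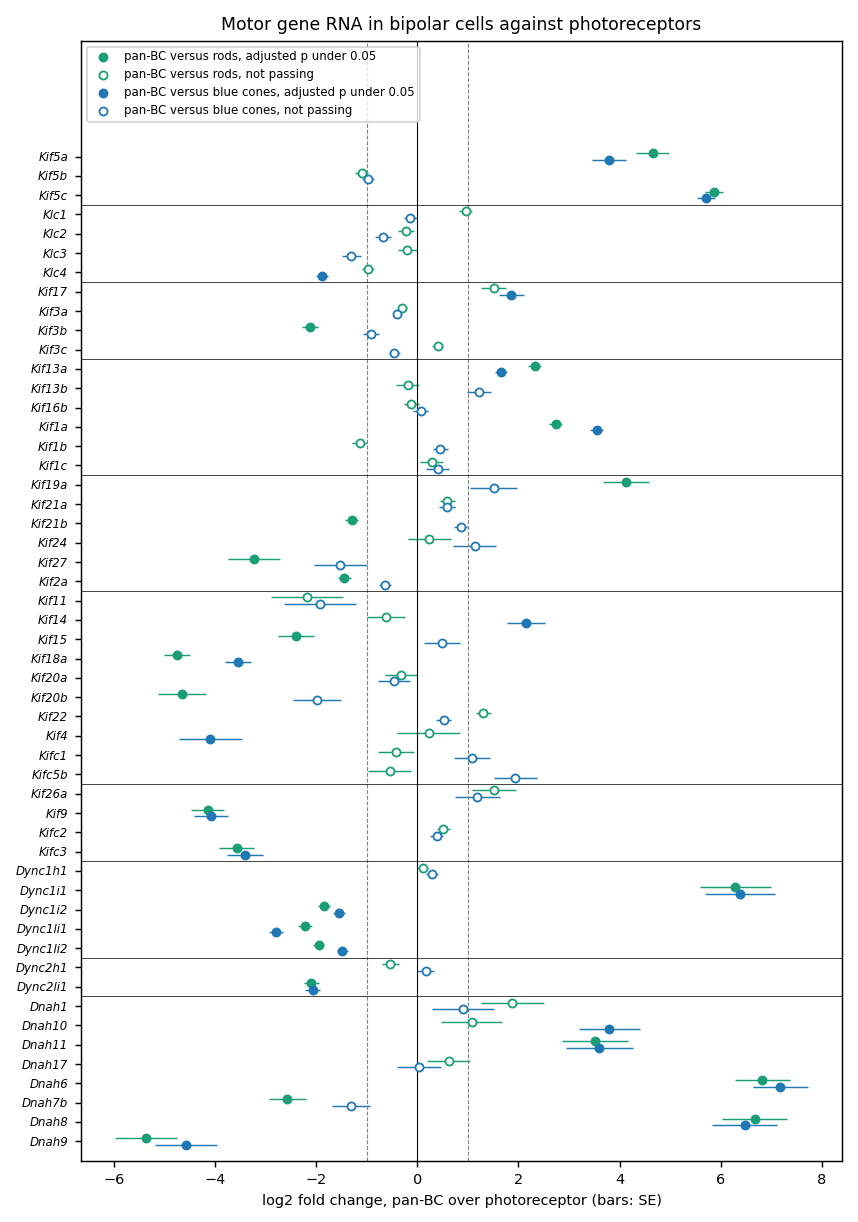
Log2 fold change of pan-BC over rods and of pan-BC over Nrl-KO blue cones for the 52 tested motor genes, with bars of 1 SE, grouped by role, filled where the gene was called (9 higher and 15 lower against rods, 11 higher and 10 lower against blue cones). Both comparisons use the same 3 pan-BC libraries.

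Genes that work with dynein or kinesin are set against the shares of all tested genes given above, which in pan-BC were 27.8% higher and 15.8% lower against rods and 22.7% and 13.7% against blue cones. Of the 12 dynactin genes, 2 fell in pan-BC against rods and 2 against blue cones, and none rose. They were Dctn1, which encodes the subunit that binds microtubules, at 1849 ± 23.6 normalized counts across pan-BC and 4942 ± 320 across rods (log2 fold change -1.42, limma adjusted p = 0.0011), and Capza1, a capping protein gene, at 83.8 ± 11.4 and 557 ± 64.0. Most dynactin genes leaned the other way against rods by smaller steps. With no minimum fold, 8 were higher and 3 lower against rods, and 3 higher and 4 lower against blue cones. The median log2 fold change of the 12 was 0.67 against rods (0.21 for all tested genes) and 0.05 against blue cones (0.16). Of 10 tested dynein light chain genes, a list that includes the dynein-2 intermediate chains Wdr34 and Wdr60, 3 were higher and 3 lower than in rods, and 3 higher and 2 lower than in blue cones. Dynlrb1 rose to 9610 ± 918 across pan-BC from 2124 ± 467 across rods (2.20, adjusted p = 8.3e-07), and Wdr60 fell to 408 ± 52.4 from 2436 ± 426 (-2.57, adjusted p = 9.9e-08). Of 13 tested dynein regulators, 1 was higher and 3 lower than in rods, and 2 higher and 2 lower than in blue cones. Bicd1, an adaptor gene, had 1543 ± 83.0 across pan-BC and 222 ± 30.6 across rods (2.80, adjusted p = 6.1e-08).

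Of 14 kinesin partners tested, pan-BC had 3 higher and 4 lower against rods, and 3 higher and 3 lower against blue cones. Rhot1, which anchors motors to mitochondria, had 671 ± 43.1 normalized counts across pan-BC, 10989 ± 791 across rods and 13841 ± 1271 across blue cones (log2 fold changes -4.03, limma adjusted p = 1.1e-11, and -4.36, adjusted p = 1.3e-11). Map7d2, a microtubule protein that recruits kinesin-1, had 1190 ± 71.1, 35.9 ± 3.53 and 343 ± 108 in the same order (5.01, adjusted p = 9.0e-12, and 1.85, adjusted p = 0.0011). Mapk8ip1, a scaffold that binds kinesin light chains, also rose against both (3.96, adjusted p = 2.5e-09, and 2.29, adjusted p = 7.3e-05). None of the dynactin, light chain, regulator or kinesin partner genes was called by limma between ON-BC and OFF-BC, and with no minimum fold 2, 1, 4 and 1 of them were. Of all tested genes, 2.95% were higher and 3.6% lower there, and 12.7% and 14.2% with no minimum fold. In rods against blue cones no dynactin gene or regulator was called, while 1 light chain gene and 2 kinesin partners were lower. In that comparison 4.63% of all tested genes were higher and 11.3% lower.

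Axonemal dynein heavy chains power motile cilia and flagella, and 8 of the 11 were tested. They are long genes at low level, at most 25.0 normalized counts per kb in any population. Dnah6 (chr6:73017603-73222227) was read in pan-BC at 225, 250 and 213 normalized counts, in rods at 0.970, 0 and 3.24 and in blue cones at 3.01, 0 and 0. That came to 634 reads in pan-BC and 4 each in rods and blue cones, a ratio per size factor of 169 (95% exact interval 65.7 to 622, counting error only) and 231 (89.6 to 849). Dnah8 had 213, 150 and 133 across pan-BC against 0.970, 0 and 1.08 across rods and 0, 0 and 5.18 across blue cones, a ratio of 244 (67.2 to 2023) and 95.2 (45.8 to 238). The limma adjusted p was at most 1.1e-06 for both genes against both photoreceptors. Dnah11 was also higher in pan-BC against rods (99 reads against 9, ratio 11.7, interval 5.94 to 26.4, adjusted p = 0.0020) and against blue cones (log2 fold change 3.60, SE 0.66, adjusted p = 0.0020), and Dnah10 against blue cones (67 reads against 4, ratio 24.4, interval 9.09 to 92.0, adjusted p = 5.5e-04).

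Dnah9 ran the opposite way, with 328, 245 and 244 normalized counts across rods, 202, 128 and 145 across blue cones and 6.38, 3.03 and 8.56 across pan-BC (log2 fold changes -5.36, SE 0.61, limma adjusted p = 5.1e-06, and -4.57, SE 0.61, adjusted p = 6.3e-05). Dnah7b fell in pan-BC against rods (-2.57, SE 0.37, adjusted p = 8.9e-04), but Dnah7a is close to it in sequence and its reads may be counted in either. Pan-BC thus held more reads of Dnah6, Dnah8 and Dnah11, and rods more of Dnah9 and Dnah7b. The bipolar subsets were not alike, with means of 6.41 for Dnah6 and 8.81 for Dnah8 in OFF-BC and 15.1 for Dnah11 in ON-BC. The other genes of the axoneme also went both ways. Of 18 tested, 4 were higher and 6 lower against rods, where 27.8% and 15.8% of all tested genes were. Against blue cones 3 were higher and 6 lower, where 22.7% and 13.7% of all tested genes were. Dnaic1, an outer arm intermediate chain gene, rose in pan-BC against rods (380 ± 48.3 against 34.8 ± 19.5, log2 fold change 3.53, adjusted p = 3.5e-06), and the arm assembly gene Ccdc103 was lower (7.97 ± 0.590 against 228 ± 18.7, -4.67, adjusted p = 7.8e-06).

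Between ON-BC and OFF-BC, 3 of the 4 motor genes called by limma were axonemal heavy chains. No kinesin-1, kinesin-2, kinesin-3 or cytoplasmic dynein gene was called by limma, while edgeR and DESeq2 called Dync1i1 and edgeR called the kinesin-3 gene Kif13a. Dnah6 stood at 225, 187 and 193 normalized counts across ON-BC and at 6.71, 4.81 and 7.72 across OFF-BC, a log2 fold change of 4.79 (SE 0.54, limma adjusted p = 6.9e-05). Dnah10 was read at 35.1, 34.3 and 54.4 across ON-BC and at 2.24, 4.81 and 2.21 across OFF-BC, 122 reads against 8, a ratio of 13.5 (6.66 to 32.1, adjusted p = 0.010), a call lost without ON-BC replicate 3. Kif19a, a kinesin that limits the length of motile cilia, was read at 1.03, 1.96 and 3.08 across ON-BC and at 117, 131 and 102 across OFF-BC. Its ratio was 57.4 in favour of OFF-BC (26.1 to 158, 306 reads against 6, adjusted p = 2.7e-06). Dnah9 was also higher in OFF-BC, 61 reads against 10, a ratio of 6.87 (3.49 to 15, adjusted p = 0.031), a call lost without ON-BC replicate 1 or 3 or OFF-BC replicate 1 or 3.

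Further members missed the threshold in limma and were called by edgeR. Dync1i1 had 171, 290 and 225 normalized counts across ON-BC and 2018, 1843 and 1367 across OFF-BC (log2 fold change -2.94, SE 0.70, limma adjusted p = 0.093). It was called by edgeR (adjusted p = 6.2e-06) and DESeq2 (adjusted p = 0.0046) on the recovered reads, and in limma without blue cone replicate 1 or 2. Blue cone replicate 1 lists the gene at 0 and the other 2 at 17.5 and 12.6, and the limma fit shares 1 estimate of the spread over all populations. Dnah8 had 41.3, 82.3 and 81.1 against 12.3, 10.8 and 3.31 (2.91, SE 0.65, adjusted p = 0.065). Dnah11 had 16.5, 17.6 and 11.3 against 104, 175 and 90.5 (-2.91, SE 0.66, adjusted p = 0.072). Both of these were called by edgeR (adjusted p = 0.0049 and 0.0026) and DESeq2 (0.0029 and 0.0012). Kif13a had 2759, 2710 and 1990 against 849, 985 and 1088 (1.34, SE 0.13, adjusted p = 0.099), and Dnah1 had 4.13, 0.980 and 1.03 against 22.4, 28.8 and 11 (54 reads in OFF-BC against 6, ratio 10.1, interval 4.36 to 28.8, adjusted p = 0.057). Kif13a and Dnah1 were named after their values were seen, and edgeR called both (adjusted p = 0.018 and 0.019).

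**Figure D4:**
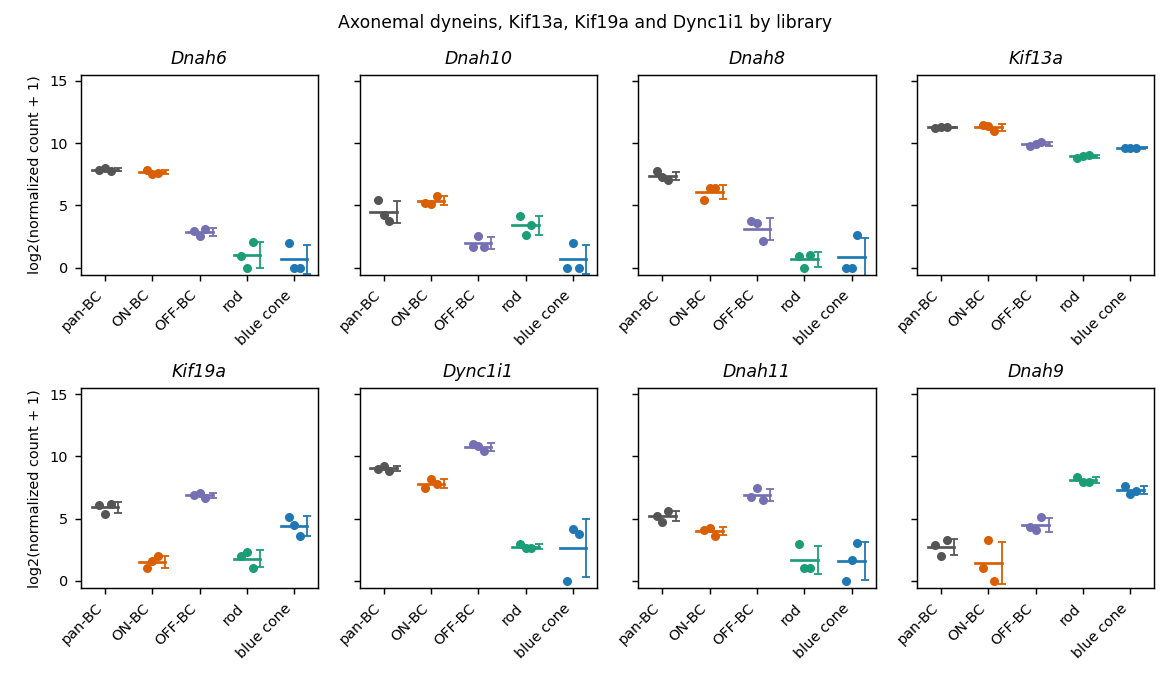
Normalized counts (log2 axis) of Dnah6, Dnah10, Dnah8, Kif13a, Kif19a, Dync1i1, Dnah11 and Dnah9 in the 5 populations, with 1 point per library, a line at the mean and a bar of 1 SD (n = 3). The mean of ON-BC exceeds that of OFF-BC in the first 4 genes and lies below it in the last 4.

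With no minimum fold, 11 motor genes were higher in ON-BC and 10 lower, against 12.7% and 14.2% of all genes. Of the 18 axonemal partners tested, only Dnaic1 was called, where 2.95% of all tested genes were higher and 3.6% lower. It stood at 31.0 ± 14.4 across ON-BC and 1728 ± 494 across OFF-BC (log2 fold change -5.82, limma adjusted p = 4.3e-08). Amacrine markers (6 genes) summed to between 734 and 940 normalized counts across OFF-BC and to between 226 and 351 across ON-BC, and Muller glia markers (6 genes) to between 2665 and 3594 and to between 1208 and 1461. All 6 markers of each list had reads in both populations. The difference lay mainly in Sox9 (mean 1400 in OFF-BC and 25.1 in ON-BC), Slc6a9 (566 and 159), Glul (1106.5 and 728), Slc1a3 (210 and 50.6) and Tfap2b (212 and 54.5). Gad2, Tfap2a and Slc32a1 were higher in OFF-BC by less. By contrast, Rlbp1 (132 and 176), Apoe (237 and 332), Aqp4 (20.3 and 51.5) and Gad1 (27.7 and 37.7) were higher in ON-BC. Of the 6 cone markers, 5 were also higher in OFF-BC, with Opn1sw at 1.76% of its blue cone level in OFF-BC and 0.0557% in ON-BC, Arr3 at 3.87% and 0.208%, Pde6h at 5.76% and 0.265%, Gnat2 at 10.5% and 2.02% and Opn1mw at 1.03% and 0.206%, and Gnb3, which ON bipolar cells also use, was lower, at 6.38% and 43.1%. Dnah9 and Kif19a, both called higher in OFF-BC, were also read in blue cones. The mean of Dnah9 was 22.9 in OFF-BC and 158 in blue cones, and that of Kif19a was 117 and 22.3. The part of these other cells in the differences was not tested.

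Kif1a and Dnah8 stood higher in pan-BC than in either bipolar subset, a comparison for which no test was run. Kif1a ran from 19413 to 25210 across pan-BC, above the 14758 to 17980 of ON-BC and the 13889 to 16597 of OFF-BC. Dnah8 ran from 133 to 213 across pan-BC, above the 41.3 to 82.3 of ON-BC. The pan-BC mice carried no Grm6-YFP, and the sort gates differed.

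In rods against blue cones, 7 of the 9 calls were the genes Kif1b, Kif21b, Kif14, Kif15, Kif20b, Kif4 and Kifc5b described above. The other 2, Dnah10 and Kif19a, rested on few reads. Dnah10 had 31 reads in rods and 4 across blue cones (ratio 10.6, interval 3.74 to 41.2, limma adjusted p = 0.037), lost in DESeq2 (adjusted p = 0.079) and without rod replicate 1 or 3 or blue cone replicate 1 or 3. Kif19a had 8 reads in rods and 89 across blue cones (ratio 8.16 in favour of blue cones, interval 3.97 to 19.5, adjusted p = 0.011), lost without blue cone replicate 1 or rod replicate 3. No kinesin-1, light chain, kinesin-2, dynein-1 or dynein-2 gene was called between the 2 photoreceptors. All 4 light chains stood lower in rods, by -0.47 (Klc2) to -1.11 (Klc3), none past the minimum fold.

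The other 12 members failed the filter. Kif2b, Kif12 and Kif4-ps were at 0 in all libraries. Kif7, Kif18b, Kif23, Kif2c, Kif26b, Kif6, Dnah2, Dnah5 and Dnah7a had at most 18 reads in a library and were not tested. The reads were not even over populations in some of them, as in Kif23, with 9, 12 and 11 reads in rods and 0 in each pan-BC library, and Dnah5, with 18, 3 and 12 in blue cones and 0, 1 and 0 in rods, 2 genes chosen after their values were seen.

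ATAC-seq gives a readout that the symbol rule did not use. A region counted as a promoter region if its centre lay within 1000 bp before or 100 bp after a transcription start of the gene. Of the 64 members, 51 had such regions, 68 in all, of which 16 were also promoter regions of another gene. In pan-BC against rods 7 of the 68 were higher and 12 lower, where 18.8% and 13.3% of all promoter regions were. In pan-BC against blue cones 5 were higher and 1 lower (12.6% and 3.85%). Between ON-BC and OFF-BC none was called in limma (0.55% and 0.99%), 6 were higher and 5 lower at an adjusted p below 0.05 with no minimum fold, and edgeR called 1 higher. In rods against blue cones 1 was higher and 1 lower (1.05% and 5.94%). Another scaling, TMM, moved the median of all regions by -0.20, -0.28, -0.22 and -0.08 in these comparisons, in the order just given, and the values below should be read against those shifts.

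The promoter seldom followed the RNA. Of the 20 members with a promoter region that were called in RNA between pan-BC and rods, 2 had a promoter region called the same way (Dnah6 and Kifc3), 5 had one called the opposite way (Kif18a, Kif20b, Kif13a, Kif19a and Dnah7b) and 13 had none called. Of 16 such members against blue cones, none went the same way, 1 went the opposite way and 15 had none called, and of 7 for rods against blue cones none was called. The ATAC test on 2 libraries recovered 15 of 100 simulated 4-fold changes between pan-BC and rods and all 100 at 16-fold, so calls at the smaller fold were often missed.

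The promoter of Dnah6 followed its RNA against rods. Its normalized counts were 144 and 204 across pan-BC, 24.9 and 12.2 across rods, and 189 and 187 across blue cones. It was called higher in pan-BC than in rods (log2 fold change 3.22, SE 0.29, limma adjusted p = 3.7e-06) and was not called against blue cones (-0.13, SE 0.29, adjusted p = 1.0), where Dnah6 RNA came to 4 reads in all. It did not separate ON-BC from OFF-BC either (150.8 and 179 against 341 and 240.4), whose RNA differed. The sequence under this region, read from GRCm38, is shown on the strand of the gene. It lies upstream of an annotated start of Dnah6, inside the intron of a longer transcript model.

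Dnah6 promoter region, chr6:73221672-73221872, minus strand: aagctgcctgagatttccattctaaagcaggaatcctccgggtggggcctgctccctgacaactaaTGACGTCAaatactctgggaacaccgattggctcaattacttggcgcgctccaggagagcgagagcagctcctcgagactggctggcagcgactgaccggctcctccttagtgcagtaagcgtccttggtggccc

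Capitals mark TGACGTCA, the palindrome known as the cyclic AMP response element. Both strands were searched for it, for TAATCC, a site of photoreceptor homeodomain factors, for TAATTA, a site of other homeodomain factors, and for CANNTG, the E-box, and the first of these was added after the sequences were seen. TGACGTCA lay in 5 of the 68 motor promoter regions (7.35%), those of Dnah6, Kif17, Kif18a, Kif5c and Klc1, and in 2.77% of all 18221 promoter regions. TAATCC lay in 8.82% and 6.85%, CANNTG in 47.1% and 49.7%, and TAATTA in 0 of the 68 and 1.42%. A match describes the letters and is not a binding site.

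Kif18a and Kif20b went the opposite way. The Kif18a promoter region had 767 and 1088 normalized counts across pan-BC, 1130 and 1212 across ON-BC and 949.7 and 553 across OFF-BC, but 97.3 and 96.9 across rods, 236 and 186 across blue cones and 191 and 232 in green cones. Its RNA was 28.5 times higher in rods than in pan-BC, while the region was higher in pan-BC (log2 fold change 3.22, SE 0.22, limma adjusted p = 1.3e-07, against rods, and 2.12, SE 0.22, adjusted p = 3.1e-04, against blue cones). The Kif20b region had 254 and 326 across pan-BC and 83.3 and 56.2 across rods (2.05, SE 0.24, adjusted p = 5.2e-04). The bases upstream of the Kif18a start, with the exon left off, are these, with capitals at the E-box.

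Kif18a promoter region, chr2:109280617-109280737, plus strand: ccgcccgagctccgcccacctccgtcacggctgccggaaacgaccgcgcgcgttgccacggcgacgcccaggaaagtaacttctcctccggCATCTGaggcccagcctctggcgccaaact

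The reverse mismatch held for Kif13a and Kif19a, whose RNA had risen in pan-BC against rods. The Kif19a promoter region had 50.4 and 42.8 across pan-BC, 209 and 179 across rods and 164 and 188 across blue cones (-2.04, SE 0.30, limma adjusted p = 0.0039, and -1.90, SE 0.30, adjusted p = 0.014). The Kif13a region nearest the start had 111 and 105 across pan-BC and 359 and 352 across rods (-1.71, SE 0.19, adjusted p = 0.0024). Of 3 promoter regions of Dnah7b, the region centred 283 bp before a start had 68.0 and 119 across pan-BC and 10.9 and 10.8 across rods (2.94, SE 0.42, adjusted p = 4.1e-04), opposite to its RNA, and of 3 of Kifc3, the region 624 bp before a start had 14.4 and 9.12 against 72.4 and 71.2 (-2.54, SE 0.68, adjusted p = 0.036), in the direction of its RNA. The regions of both genes nearest a start were not called. Kif9 was lower in pan-BC in RNA, and its more open promoter region had 136 and 94.6 against 312 and 294 across rods, which was not called (-1.41, SE 0.22, adjusted p = 0.073). Some promoters were open where little or no RNA was counted. The Kif12 region had 46.4 and 51.3 across pan-BC and 0 and 0 across rods, with Kif12 at 0 in all RNA-seq libraries, and the Kif6 region had 149.6 and 164 against 6.23 and 19.0, with at most 15 Kif6 reads in a library. Both genes were named after their values were seen.

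**Figure D5:**
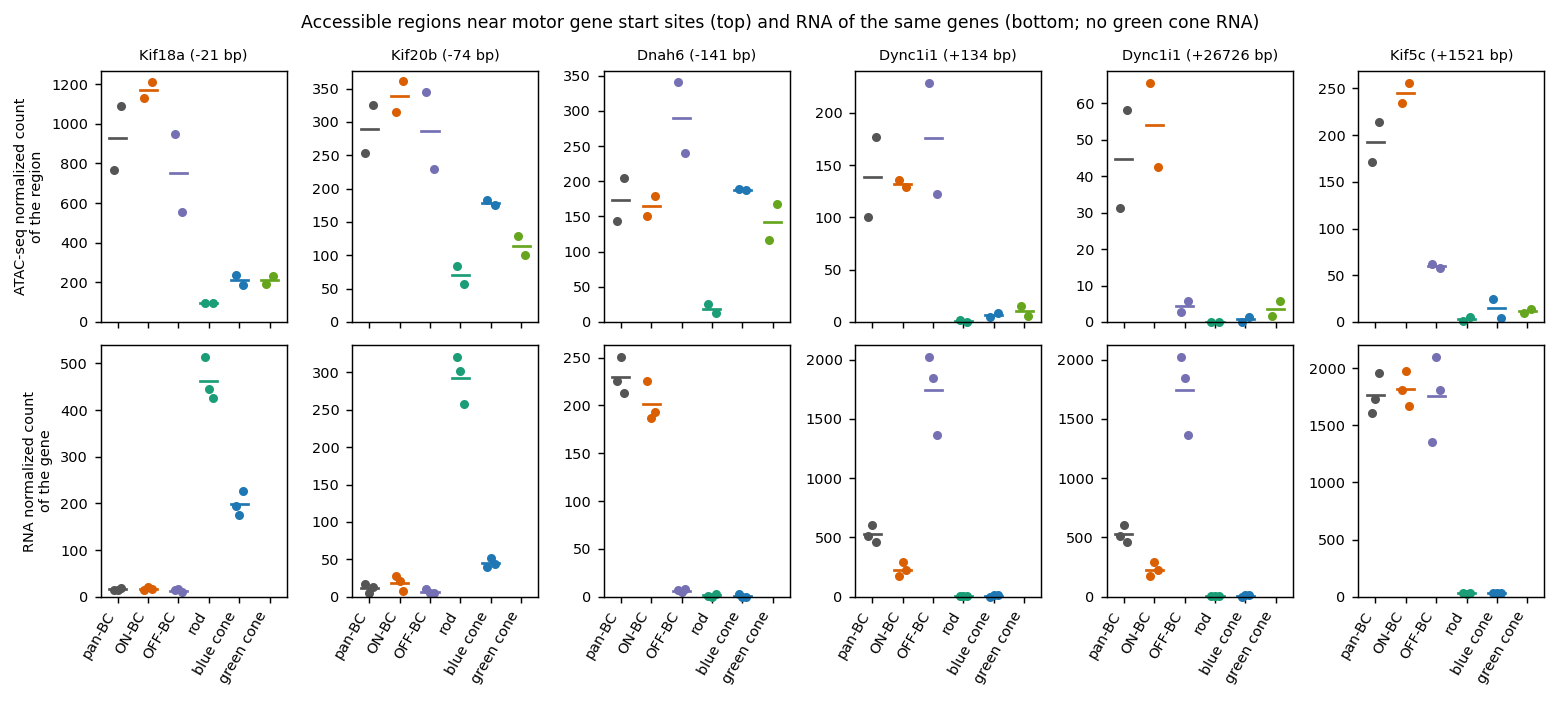
Normalized ATAC-seq counts (top row, 2 libraries per population, green cones included) of regions at Kif18a, Kif20b, Dnah6, Dync1i1 and Kif5c, named by the distance in bp of their centre from the start of the gene, and normalized RNA-seq counts of the same genes (bottom row, 3 libraries per population). The Kif18a and Kif20b promoters are more open in bipolar cells than in rods while their RNA is lower, and the regions of Dync1i1 and Kif5c are high in the libraries of the populations with the RNA, except in the Dync1i1 region at 26726 bp, which is near 0 in OFF-BC.

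Regions were also given to whichever gene started nearest, a choice made after the data were seen, which put 264 tested regions at motor genes. Against rods 82 were higher and 39 lower in pan-BC, where 40.3% and 11.2% of all regions were, and against blue cones 55 were higher and 24 lower (28.8% and 7.13%). The median log2 fold change of the motor gene regions was 0.00 against rods, beside 1.16 for all regions. All 6 regions of Dync1i1 were called higher in pan-BC against both photoreceptors, as were 9 of 11 for Kif5c against rods and 7 against blue cones, where 1 was lower. For Dnah11, 7 of 9 were higher against rods and 6 against blue cones. Such regions also lay at genes without matching RNA, named here after their values were seen. Kif2b, at 0 in all RNA-seq libraries, had 7 of 8 regions higher in pan-BC against both photoreceptors. Dnah5, not tested in RNA, had 8 of 11 higher against rods. Conversely, Kif1a, called higher in RNA, had 2 of 10 higher and 1 lower against rods. The Dync1i1 region 134 bp inside the gene had 101 and 177 normalized counts across pan-BC, 1.56 and 0 across rods and 5.18 and 8.67 across blue cones. The Kif5c promoter itself, at 303 and 469 across pan-BC and 177 and 155 across rods, was not called (1.19, SE 0.23, limma adjusted p = 0.32).

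Kif5c instead differed in an intron, where a region 1521 bp from the start had 171 and 214 across pan-BC, 234 and 256 across ON-BC, 62.0 and 57.4 across OFF-BC, 1.56 and 5.42 across rods and 24.6 and 4.34 across blue cones. It was called higher in pan-BC against rods (5.57, SE 0.55, limma adjusted p = 1.4e-06) and against blue cones (4.04, SE 0.55, adjusted p = 1.8e-04). Of the 6 regions of Dync1i1, 1 was called between ON-BC and OFF-BC, and it is shown because of that call. This intronic region had 65.7 and 42.5 across ON-BC and 2.69 and 5.84 across OFF-BC (3.42, SE 0.75, limma adjusted p = 0.036, and 0.066 with TMM scaling). It was high in ON-BC, where Dync1i1 RNA was lower than in OFF-BC. Both sequences follow, on the strand of their genes and with E-boxes in capitals.

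Kif5c intron region, chr2:49620707-49620907, plus strand: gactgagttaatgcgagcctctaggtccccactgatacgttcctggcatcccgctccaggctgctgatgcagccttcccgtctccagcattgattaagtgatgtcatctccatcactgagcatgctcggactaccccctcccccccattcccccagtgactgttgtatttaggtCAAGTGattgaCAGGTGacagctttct

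Dync1i1 intron region, chr6:5752265-5752465, plus strand: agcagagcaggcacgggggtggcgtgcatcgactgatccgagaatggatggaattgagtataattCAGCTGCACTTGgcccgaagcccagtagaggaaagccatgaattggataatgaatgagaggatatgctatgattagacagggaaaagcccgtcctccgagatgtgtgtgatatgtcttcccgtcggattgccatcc

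Each of these regions held 2 E-boxes. Neither held any of the other motifs. CANNTG lay in 68.9% of all 110715 regions, so its presence does not set them apart.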

How the data were processed

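The tables used held RNA-seq reads per gene in 15 libraries and ATAC-seq reads per region in 12. According to the labels and the study's methods, the authors aligned RNA-seq reads with STAR 2.7.0d and ATAC-seq reads with Bowtie2 (2.2.5 in the submitters' processing notes, while the study's methods give a later version) to mm10 (GRCm38), and called peaks with MACS2 2.1.1. The deposited tables hold a signal, reads divided by the authors by 1 size factor per library, and multiplying back gave whole reads for 100% of values above 0 (tolerance 0.01 reads). The unstranded kit does not tell a gene from one that overlaps it on the other strand. All 15 or 12 mapped columns were used, and 14 peak lists and the green cone double sorts were not.

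The edgeR function filterByExpr left 14024 genes and 108448 regions. limma 3.58.1 in R 4.3.3 fitted log2(normalized count + 1) with 1 level per population over all libraries of an assay, and its treat function tested each difference for passing a log2 fold change of 1. P-values are from limma unless edgeR or DESeq2 is named, adjusted by Benjamini and Hochberg over all genes or regions tested, with a call at 0.05. edgeR 4.0.16 and DESeq2 1.42.0 on the recovered reads, TMM scaling, pseudocounts of 0.5 and 5, no filter, no minimum fold, a replicate block and leaving out each library were alternatives. Where a group held at most 10 reads, the ratio of reads per size factor is given with an exact 95% interval, which covers counting error only. On simulated data, limma called 79 of 100 genes changed 4-fold and 100 of 100 changed 16-fold between pan-BC and rods among 14024 genes.

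Named in full are, per comparison, the 8 called members with the largest change in each direction, the most abundant member of each role per kb, and 20 fixed transport motor genes. Members, roles, lists and this rule were chosen with earlier results of these data known. Of the pathway lists, Bicdl1, Bicdl2, Kif1bp, Kifbp, Map7d3, Dnai1 and Dnai2 matched no gene symbol in the table. Sequences and gene positions are from GRCm38.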

Additional observations from a re-analysis of the deposited data

How the results depend on the processing

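Over the 40 named genes, 4 comparisons and 23 alternatives, 3570 of 3680 RNA values stayed on their side of the threshold, 85 came to pass it and 25 no longer did, and none changed direction. With no minimum fold the called motor genes were 17 higher in pan-BC against rods, 23 higher and 21 lower against blue cones, 11 and 10 in ON-BC against OFF-BC, and 18 and 11 in rods against blue cones. For ON-BC against OFF-BC, edgeR called 4 higher and 5 lower, DESeq2 4 lower, and the fit without a filter 1 lower. A pseudocount of 5 left 1 lower in rods against blue cones. Leaving out each library in turn gave 9 to 10 higher and 14 to 16 lower against rods, 10 to 12 and 10 to 11 against blue cones, 2 to 3 and 1 to 4 for ON-BC against OFF-BC (1 without ON-BC replicate 3 or OFF-BC replicate 1, 4 without any of the blue cone replicates), and 5 to 7 and 1 to 2 for rods against blue cones (1 without blue cone replicate 1 or rod replicate 3). The cause was not tested.

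For promoter regions, no minimum fold gave 14 higher and 41 lower against rods, 14 and 26 against blue cones, 6 and 5 for ON-BC against OFF-BC, and 29 and 6 for rods against blue cones. Counting regions within 500 bp on both sides of a start gave 11 higher against rods and 8 against blue cones. TMM scaling gave 24 lower against rods and 5 against blue cones, and edgeR 20 and 6, with 1 higher for ON-BC against OFF-BC and 2 lower for rods against blue cones. A pseudocount of 5 gave 3 lower against blue cones and 1 higher for ON-BC against OFF-BC. Leaving out each library gave 6 to 7 higher and 7 to 14 lower against rods (7 without rod replicate 1), 4 to 5 and 0 to 3 against blue cones (0 without pan-BC or blue cone replicate 2, 3 without ON-BC replicate 1 or 2), 0 to 1 in both directions for ON-BC against OFF-BC (1 higher without blue cone replicate 2, 1 lower without ON-BC replicate 2), and 0 to 1 and 1 to 2 for rods against blue cones (0 higher without any of their 4 libraries, 2 lower without rod replicate 2). Where this left a population with 1 library, that library was assumed to vary like the others.

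Replicate numbers did not enter the main fit. The labels do not say whether same-numbered libraries came from the same animals. Same-numbered ON-BC and OFF-BC libraries share a postnatal age in the labels, and their deviations correlated at -0.08, 0.22 and -0.06. With the replicate number as a block, 160 of 160 named RNA values kept their call, and the promoter regions lower in pan-BC than in blue cones went from 1 to 2.

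Calls resting on few reads are limited by depth, and ATAC-seq with 2 libraries missed most simulated 4-fold changes.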
